A study of Mus musculus with 56 samples.

Results

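The 9 RNAs described here are Malat1, Neat1, Meg3, Rian, Mirg, Miat, Snhg11, Kcnq1ot1 and Gas5, a set of long noncoding RNAs best known from the nucleus. They were found by gene symbol among 55386 annotated genes, and all 9 were present in each of the 3 count tables and passed the filter on low counts in every comparison. They were read as a check of what a pulldown of tagged ribosomes holds besides messenger RNA, and of whether the loss of whisker input changed them. Gene counts were available from 56 libraries of mouse barrel cortex, the field of sensory cortex that receives whisker input, at postnatal day 5. In every animal the whiskers on one side of the face had been cauterised on postnatal day 4, 24 h before, so deprived and control cortex both came from lesioned mice.

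Ribosomes of 1 cell type carried the ribosomal protein L10a fused to enhanced green fluorescent protein (EGFP). In the knockout microglial line both copies of Cx3cr1, the fractalkine receptor gene of microglia, carried a tamoxifen-inducible Cre (Cx3cr1CreErt2/CreErt2), which switched on the tag from the Eef1a1 locus (Eef1a1LSL.eGFPL10a/+). In the heterozygous microglial line 1 copy carried it (Cx3cr1CreErt2/+, with the same tag allele). Tamoxifen, 50 µg by mouth daily on postnatal days 1 to 3, is described for the heterozygous genotype; the labels do not name the knockout genotype there. In astrocyte mice Aldh1l1 drove the tag (Aldh1l1::eGFPL10a), and no tamoxifen was given. The tag thus marks the cells in which a promoter was active. Nuclei and then mitochondria had been spun out of the homogenate before the beads were added, and the beads were washed in high salt, per the labels. RNA on the beads (bound) and RNA left in solution (unbound) gave a library each. There were 5 deprived and 5 control libraries per fraction in the knockout line, 4 and 4 in the heterozygous line, and 5 and 5 in the astrocyte line. The 20 knockout libraries came from 5 mice and the 16 heterozygous libraries from 4, each cortical side (piece) giving a bound and an unbound library, while the astrocyte labels name no animals. Astrocyte pieces were formed by matching the number in the titles of bound and unbound libraries. The p-values below therefore measure the spread between libraries.

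Malat1 and Neat1 are made beside each other on chromosome 19 and reside in nuclear speckles and paraspeckles. Meg3, Rian and Mirg are transcribed from the maternal copy of the imprinted Dlk1-Dio3 domain and carry or neighbour many small RNAs. Miat sits in nuclear foci of neurons. Kcnq1ot1 is a very long imprinted transcript that silences genes on its own chromosome. Snhg11 and Gas5 host small nucleolar RNAs (snoRNAs) in their introns, and the spliced Gas5 RNA leaves the nucleus, is met by ribosomes and is degraded in the course of translation.

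Positions are those of GRCm38 (GENCODE vM21). Malat1 (ENSMUSG00000092341, chr19:5795690-5802672, minus strand) and Neat1 (ENSMUSG00000092274, chr19:5824708-5845478, minus strand) each cover 1 unbroken exon block. Meg3 (ENSMUSG00000021268, chr12:109541001-109571726), Rian (ENSMUSG00000097451, chr12:109603940-109661716) and Mirg (ENSMUSG00000097391, chr12:109729764-109749460) follow each other on the plus strand. Rian encloses 4 microRNA and 13 snoRNA genes, and Mirg encloses 15 microRNA genes. Miat (ENSMUSG00000097767) lies at chr5:112213228-112229395 on the minus strand, Snhg11 (ENSMUSG00000044349) at chr2:158375638-158386145 on the plus strand and Gas5 (ENSMUSG00000053332), with 10 snoRNA genes inside it, at chr1:161034422-161038539 on the plus strand. The annotation files Snhg11 under protein-coding genes. Kcnq1ot1 (ENSMUSG00000101609, chr7:143203458-143296549, minus strand) is a single exon of 93092 bases inside the protein-coding gene Kcnq1, which runs the other way and shares 121 exon bases with it. Of the exon bases of Miat, 24.3% are shared with a gene on the opposite strand, as are 6.8% of those of Meg3 and 6.5% of those of Malat1. No source says whether reads were assigned by strand, and these counts are uncertain to that extent. For Kcnq1ot1 the uncertainty is wider than the shared exon bases. Without strand, reads from introns of Kcnq1 that lie within Kcnq1ot1 would count for it too.

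3 sequences are shown because they bear on how these RNAs are made or kept. The first is the 3′ end of Malat1 (chr19:5795982-5796077, minus strand, GRCm38, read from the GENCODE transcript), where 2 U-rich motifs and an A-rich tract, in capitals and written with T, are known to fold into a triple helix that protects an RNA without a poly(A) tail. The others are promoter windows of Meg3 (chr12:109540746-109541045, plus strand) and of a Gas5 start site (chr1:161034916-161035215, plus strand), each of 300 bases around the start in RefSeq on GRCm38.p6. Capitals mark the 8 letters TGACGTCA, the palindromic cAMP response element known from genes driven by neuronal activity, and in Gas5 also the run of pyrimidines at the start, the mark of 5′ TOP genes, whose RNAs are handed to ribosomes under growth control.
Malat1 3′ end: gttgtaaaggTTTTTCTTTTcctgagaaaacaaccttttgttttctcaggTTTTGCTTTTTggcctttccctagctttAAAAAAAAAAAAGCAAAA
Meg3 window: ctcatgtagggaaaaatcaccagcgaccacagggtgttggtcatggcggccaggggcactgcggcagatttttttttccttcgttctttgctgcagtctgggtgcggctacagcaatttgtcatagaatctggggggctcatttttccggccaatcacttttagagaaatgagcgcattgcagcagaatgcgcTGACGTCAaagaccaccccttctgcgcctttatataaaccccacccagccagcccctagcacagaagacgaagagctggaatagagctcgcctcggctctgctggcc
Gas5 window: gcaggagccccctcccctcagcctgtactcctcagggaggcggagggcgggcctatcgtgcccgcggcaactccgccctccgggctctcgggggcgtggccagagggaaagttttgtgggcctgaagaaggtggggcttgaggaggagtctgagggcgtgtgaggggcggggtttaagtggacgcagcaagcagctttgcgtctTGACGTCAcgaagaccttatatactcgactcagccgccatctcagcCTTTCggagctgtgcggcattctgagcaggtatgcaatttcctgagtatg
The palindrome began 57 bases before the Meg3 start and 46 bases before the Gas5 start. RefSeq gave 10 windows for 8 of the 9 genes, with Neat1 missing, and 2 of the 10 held the palindrome, as did 588 of all 32851 windows (1.79%). A start with C followed by at least 4 more pyrimidines was found in 2 of the 10 windows, those of Gas5 and Miat, and in 2.51% of all windows. Of the translation genes listed as 5′ TOP genes and compared below, 15 had a window and 3 of them such a start. A match is only a description of these letters.

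Library totals ran from 35.8 to 53.9 M (mega) counts in bound and 34.6 to 56.7 M in unbound knockout libraries. They were 39.9 to 49.7 M in bound and 32.8 to 50.7 M in unbound heterozygous libraries, and 10.9 to 28.6 M in bound and 10.1 to 24.3 M in unbound astrocyte libraries. The 9 RNAs together took 0.102% to 0.17% of counts in bound and 0.136% to 0.219% in unbound knockout libraries. Heterozygous libraries gave 0.107% to 0.145% in bound and 0.141% to 0.309% in unbound RNA, and astrocyte libraries 0.23% to 0.31% in bound and 0.308% to 0.399% in unbound RNA. Mitochondrially encoded genes took 2.02% to 4.55% of bound and 23.7% to 33.1% of unbound knockout counts, 2.01% to 2.64% of bound and 21.9% to 30.6% of unbound heterozygous counts, and 2.85% to 5.59% of bound and 5.54% to 9.24% of unbound astrocyte counts. The tagged cell type was seen in its markers: all 17 microglial markers were higher in bound than in unbound RNA of both microglial lines, with a median log2 fold change of 2.72 (knockout) and 2.81 (heterozygous), and 14 of 15 astrocyte markers were higher in the astrocyte line, with a median of 1.06. Neuronal markers were nonetheless present in every bound library, with 18 of 18 past the filter.

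Per kilobase of exon, Malat1 was the most abundant of the 9 RNAs in both fractions of all 3 lines. It averaged 47.1 ± 14.9 CPM per kb in bound and 93.8 ± 26.6 CPM per kb in unbound knockout libraries (SD, n = 10 each), where CPM is counts per M counts of the library, after TMM scaling. Meg3 was second in unbound RNA of all 3 lines, at 36.5 ± 6.36 CPM per kb in the knockout line. In bound RNA Rian took the second place in both microglial lines, with 20.01 ± 2.12 CPM per kb in the knockout line, where Gas5 (18.1 ± 2.49) and Meg3 (17.6 ± 5.22) lay within the spread of it. Neat1, Mirg and Kcnq1ot1 were the 3 lowest throughout, each under 1 CPM per kb. Their counts were still sufficient for a test: 20 counts in the poorest bound and 16 in the poorest unbound library for Mirg, the rarest.

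**Figure D1:**
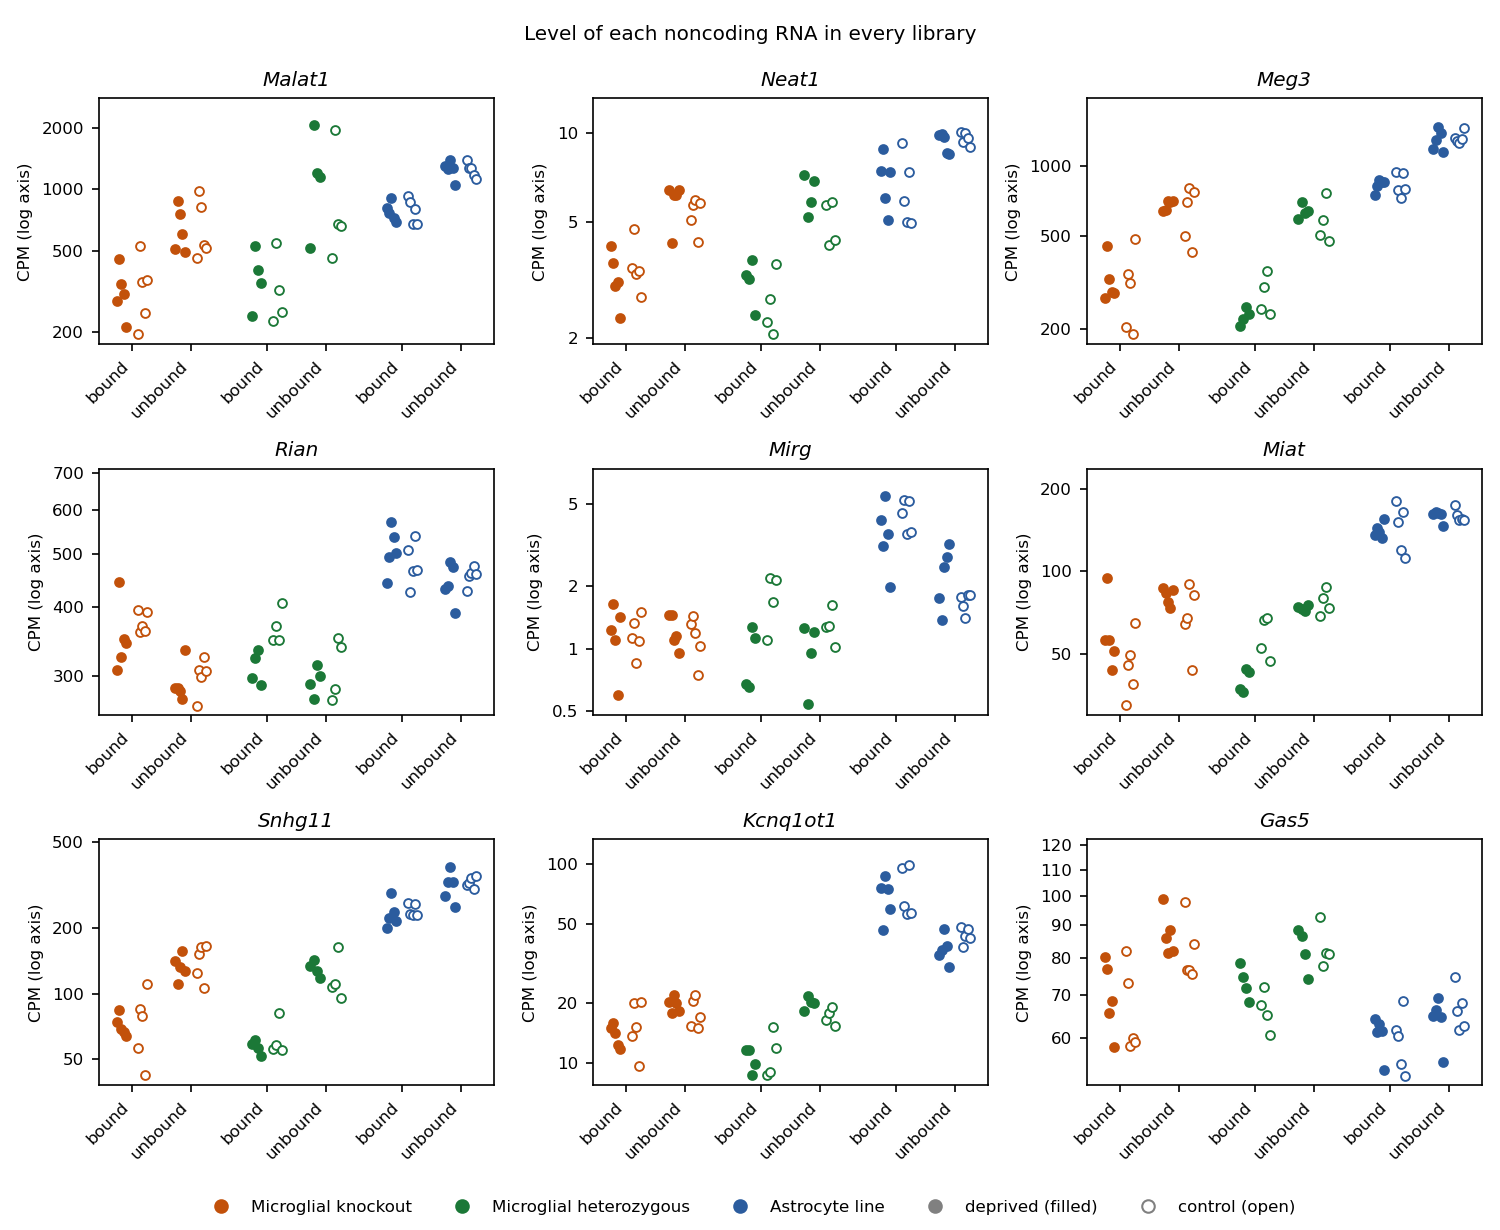
CPM of each RNA in every library on a log axis, with bound left of unbound in the knockout (orange), heterozygous (green) and astrocyte (blue) lines; filled points are deprived and open points control cortex. Malat1, Neat1, Meg3 and Snhg11 sit lower in bound than in unbound RNA of every line, while Rian does not, and heterozygous Malat1 reaches 2067 CPM in 1 unbound library.

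The first comparison asked which of the RNAs were held by tagged ribosomes. Between 5 and 7 of the 9 were lower in bound than in unbound RNA, and a few were not. By edgeR's quasi-likelihood test with Benjamini-Hochberg adjustment over all genes and a threshold of 0.05, 7 of 9 were lower and 1 higher in bound RNA of the knockout line, where 30.4% and 31.6% of 19681 genes were called lower and higher (61.9% in either direction). In the heterozygous line 7 were lower and 1 higher, against 30.8% and 31.8% of 19275 genes (62.6% in either direction). In the astrocyte line 5 were lower and 3 higher, against 27.6% and 31.5% of 18324 genes (59.1% in either direction). The median log2 fold change of the 9 was -0.51 in the knockout line, where that of all genes was -0.01, -0.78 in the heterozygous line (all genes -0.01) and -0.15 in the astrocyte line (all genes 0.03). Fewer cells with the RNA and less RNA per cell cannot be told apart in these bulk samples, nor can RNA on ribosomes be told from RNA carried on the beads. Values below are lowest, median and highest CPM over the 10 knockout, 8 heterozygous or 10 astrocyte libraries of a fraction, and changes are log2 fold changes, bound over unbound, ± standard error, with edgeR's Benjamini-Hochberg adjusted p.

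Of the RNAs of nuclear bodies, Malat1 was lower in bound RNA in each line and in every one of the 28 pieces. It had 196, 326 and 527 CPM in bound libraries, against 462, 569 and 981 CPM in unbound libraries of the knockout line, a change of -0.99 ± 0.17 (adjusted p = 3.0e-05). The heterozygous line had 226, 337 and 545 CPM in bound libraries, against 463, 916 and 2067 CPM in unbound libraries, a change of -1.59 ± 0.29 (adjusted p = 6.9e-05), which is 0.333 of the unbound level. Astrocyte groups did not overlap, with 675, 784 and 932 CPM in bound libraries, against 1050, 1271 and 1391 CPM in unbound libraries and a change of -0.67 ± 0.06 (adjusted p = 7.1e-10); in the other 2 lines the highest bound libraries reached the lowest unbound ones. Neat1, the scaffold of paraspeckles, was rarer by far, with 2.34, 3.36 and 4.72 CPM in bound libraries, against 4.22, 5.86 and 6.42 CPM in unbound libraries of the knockout line (-0.73 ± 0.11, adjusted p = 5.6e-06). It had 2.07, 2.95 and 3.71 CPM in bound libraries, against 4.17, 5.76 and 7.22 CPM in unbound libraries of the heterozygous line, which did not overlap (-0.95 ± 0.13, adjusted p = 1.6e-06). For astrocytes it had 4.96, 6.69 and 9.30 CPM in bound libraries, against 8.50, 9.67 and 10.1 CPM in unbound libraries (-0.48 ± 0.11, adjusted p = 3.9e-04). Miat had 32.7, 50.5 and 94.5 CPM in bound libraries, against 43.7, 79.7 and 90.1 CPM in unbound libraries of the knockout line, a change of -0.51 ± 0.14 (adjusted p = 0.0024), and was lower in 9 of 10 pieces. Without overlap, the heterozygous line had 36.6, 45.6 and 67.7 CPM in bound libraries, against 68.7, 74.0 and 87.4 CPM in unbound libraries (-0.64 ± 0.07, adjusted p = 1.4e-07). Miat of the astrocyte line differed little between the fractions, with 112, 141 and 181 CPM in bound libraries, against 147, 161 and 174 CPM in unbound libraries and a change of -0.15 ± 0.06 (adjusted p = 0.040). That last call was kept in 7 of 20 fits with 1 library left out, with adjusted p up to 0.095 in the others.

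The 3 RNAs of the Dlk1-Dio3 domain did not move together, although they are transcribed in the same direction from 1 imprinted region. Meg3, a growth-restraining RNA at the head of the domain, was lower in bound RNA in all 28 pieces. It had 191, 303 and 487 CPM in bound libraries, against 429.6, 698 and 805 CPM in unbound libraries of the knockout line, a change of -1.05 ± 0.15 (adjusted p = 1.3e-06). The heterozygous line had 206, 239 and 355 CPM in bound libraries, against 477, 609 and 761 CPM in unbound libraries without overlap, a change of -1.26 ± 0.09 (adjusted p = 2.7e-10), or 0.417 of the unbound level. Also without overlap, the astrocyte line had 726, 832 and 943 CPM in bound libraries, against 1146, 1293 and 1456 CPM in unbound libraries (-0.65 ± 0.05, adjusted p = 3.6e-11). Rian, the host of a snoRNA cluster, was the 1 RNA of the 9 that was higher in bound RNA of all 3 lines, by little. It had 307, 361 and 444 CPM in bound libraries, against 265, 292 and 334 CPM in unbound libraries of the knockout line, a change of 0.30 ± 0.06 (adjusted p = 1.3e-04) with bound higher in 10 of 10 pieces. The heterozygous line had 289, 342 and 407 CPM in bound libraries, against 271, 295 and 351 CPM in unbound libraries (0.16 ± 0.06, adjusted p = 0.022; 6 of 8 pieces), and this call was lost by side letter (adjusted p = 0.063), when the libraries of each mouse were summed (adjusted p = 0.081), without mouse 15 (adjusted p = 0.18) and without 1 bound control library, that of piece 21R (adjusted p = 0.050). The astrocyte line had 425, 497 and 571 CPM in bound libraries, against 390.4, 457 and 483 CPM in unbound libraries (0.14 ± 0.05, adjusted p = 0.019; 9 of 10 pieces), a call lost without 1 bound control library, number 4 (adjusted p = 0.061), and without the filter on low counts (log2 fold change 0.10, adjusted p = 0.14). The groups overlapped in each line. Mirg, the host of a microRNA cluster, had 0.596, 1.18 and 1.64 CPM in bound libraries, against 0.742, 1.17 and 1.45 CPM in unbound libraries of the knockout line (0.00 ± 0.17, adjusted p = 0.99), and 0.653, 1.2 and 2.2 CPM in bound libraries, against 0.537, 1.23 and 1.61 CPM in unbound libraries of the heterozygous line (0.19 ± 0.20, adjusted p = 0.43), neither of them a called change. Among astrocyte libraries it was higher, with 1.99, 3.92 and 5.49 CPM in bound libraries, against 1.38, 1.79 and 3.20 CPM in unbound libraries and a change of 1.04 ± 0.16 (adjusted p = 3.6e-06), in 9 of 10 pieces.

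Kcnq1ot1 differed in direction between the microglial lines and the astrocyte line. In bound RNA of the microglial lines it was lower, with 9.67, 14.5 and 20.3 CPM in bound libraries, against 14.9, 19.0 and 21.9 CPM in unbound libraries of the knockout line (-0.35 ± 0.11, adjusted p = 0.0081; lower in 9 of 10 pieces) and 8.68, 10.7 and 15.2 CPM in bound libraries, against 15.3, 18.6 and 21.7 CPM in unbound libraries of the heterozygous line (-0.78 ± 0.10, adjusted p = 9.4e-07; 8 of 8 pieces). The astrocyte line had it higher in 10 of 10 pieces, with 46.6, 68.0 and 98.7 CPM in bound libraries, against 30.4, 40.7 and 48.1 CPM in unbound libraries, a change of 0.81 ± 0.11 (adjusted p = 5.6e-07), or 1.75 times the unbound level. Of the coding genes around it, Cdkn1c, a cell cycle inhibitor silenced in cis by Kcnq1ot1, was lower in bound RNA of all 3 lines, with changes of -0.48 ± 0.12, -0.50 ± 0.10 and -0.48 ± 0.10 in the knockout, heterozygous and astrocyte lines. Cd81, a tetraspanin of the cell surface, changed with the same signs as Kcnq1ot1, by -0.58 ± 0.08, -0.46 ± 0.05 and 0.81 ± 0.04 (edgeR, adjusted p below the threshold in each line). The part of reads from Kcnq1 introns in the Kcnq1ot1 counts was not tested.

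Of the snoRNA hosts, Snhg11, which neurons express strongly, was lower in bound RNA in all 28 pieces. It had 42.2, 71.3 and 110.4 CPM in bound libraries, against 106, 136 and 165 CPM in unbound libraries of the knockout line (-0.92 ± 0.13, adjusted p = 9.5e-07). The heterozygous line had 51.8, 57.2 and 81.2 CPM in bound libraries, against 95.7, 122 and 164 CPM in unbound libraries without overlap (-1.07 ± 0.10, adjusted p = 6.3e-09), and the astrocyte line 199, 231 and 289 CPM in bound libraries, against 251, 323 and 382 CPM in unbound libraries (-0.43 ± 0.07, adjusted p = 2.6e-06). Gas5 showed the smallest change among the RNAs called lower in both microglial lines. It had 58.1, 67.1 and 82.0 CPM in bound libraries, against 75.5, 83.1 and 99 CPM in unbound libraries of the knockout line, a change of -0.31 ± 0.07 (adjusted p = 6.3e-04), and 60.7, 69.9 and 78.5 CPM in bound libraries, against 74.1, 81.3 and 92.8 CPM in unbound libraries of the heterozygous line, a change of -0.25 ± 0.05 (adjusted p = 2.7e-04). In the astrocyte line it had 52.2, 61.4 and 68.4 CPM in bound libraries, against 54.9, 65.4 and 74.8 CPM in unbound libraries (-0.12 ± 0.05, adjusted p = 0.054), just outside the threshold. With the piece as a block in edgeR, that change was -0.12 with adjusted p = 0.010. This block pairs bound and unbound libraries, here by title number. DESeq2 and limma-voom also called the change.

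**Figure D2:**
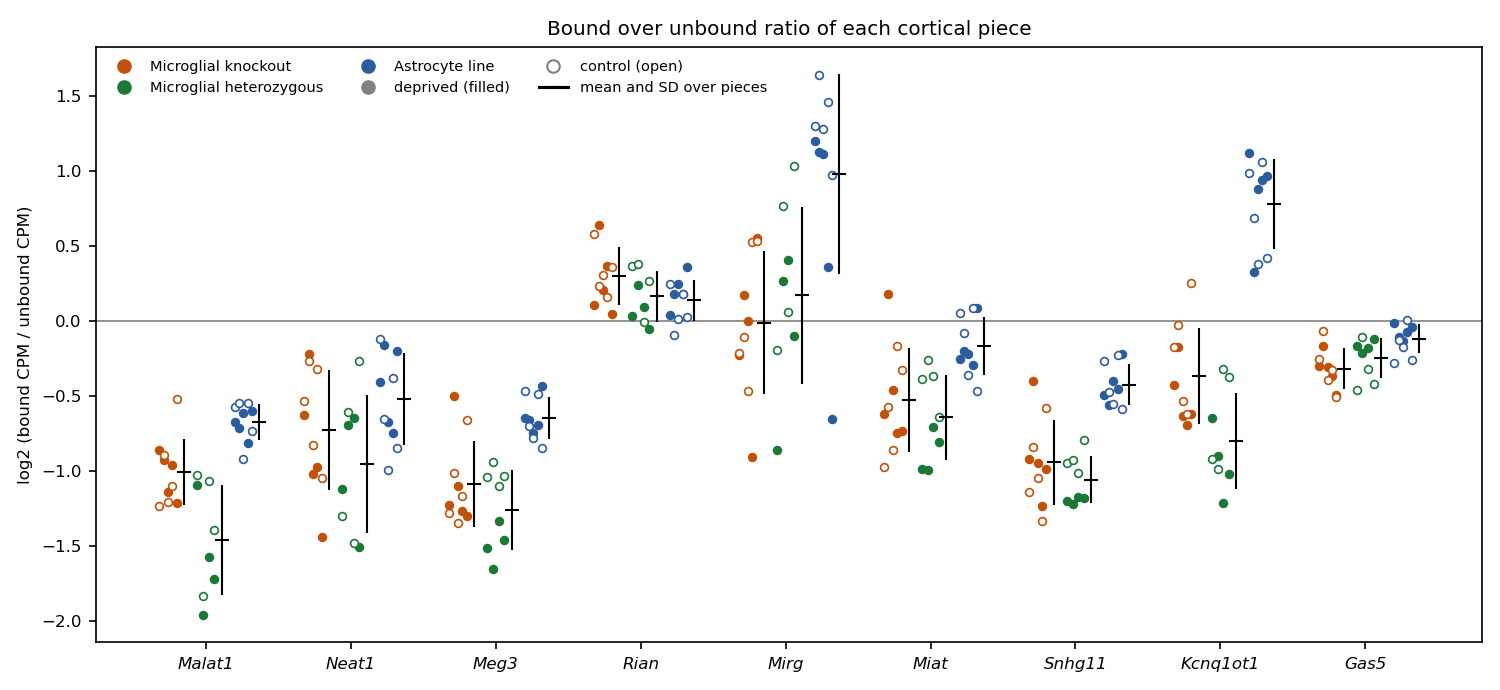
Log2 of bound over unbound CPM for each RNA in every cortical piece (filled deprived, open control), with the mean and SD over pieces of a line in black. All pieces lie below 0 for Malat1, Neat1, Meg3 and Snhg11, Rian lies near or above 0, and Kcnq1ot1 lies above 0 in all 10 astrocyte pieces and Mirg in 9.

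Other gene groups give a scale for these changes. Of 18 other snoRNA host genes, 14 were tested in the knockout line and 2 were called higher and 6 lower (median log2 fold change -0.21), 15 were tested in the heterozygous line with 2 higher and 3 lower (median -0.07), and 14 in the astrocyte line with 5 higher and 3 lower (median 0.14). Snhg14, the long host of an imprinted snoRNA array in neurons, was higher in bound RNA of all 3 lines, by 1.12 ± 0.11, 1.05 ± 0.08 and 0.87 ± 0.08 in the knockout, heterozygous and astrocyte lines. Snhg5 differed by 0.17 ± 0.06, 0.10 ± 0.09 and 0.11 ± 0.05, and Snhg1 by -0.26 ± 0.07, -0.18 ± 0.09 and 0.07 ± 0.05. Of 19 further long noncoding RNAs, 16 were tested in each line: 2 were higher and 8 lower in the knockout line (median -0.17), 2 and 8 in the heterozygous line (median -0.20), and 6 and 4 in the astrocyte line (median -0.04). Peg13, an imprinted brain RNA, was higher in bound RNA, by 0.85 ± 0.06, 0.83 ± 0.05 and 0.18 ± 0.06, while Pantr1 differed by -0.62 ± 0.06, -0.58 ± 0.07 and -0.02 ± 0.05 and Tug1 by 0.04 ± 0.05, -0.02 ± 0.04 and -0.33 ± 0.04. Annotated long noncoding RNAs took 1.27% to 1.65% of all counts in bound and 0.911% to 1.13% in unbound libraries of the knockout line, but mitochondrial genes fill much of the unbound total. Over the counts outside those genes, a denominator chosen after seeing the data, the lowest, median and highest shares were 1.3%, 1.35% and 1.7% in bound and 1.36%, 1.43% and 1.5% in unbound knockout libraries. They were 1.2%, 1.38% and 1.47% in bound and 1.36%, 1.51% and 1.63% in unbound heterozygous libraries, and 1.73%, 1.86% and 2.09% in bound and 1.59%, 1.74% and 1.81% in unbound astrocyte libraries. The fractions overlapped in each line, with the lower median in bound RNA of both microglial lines. The 9 RNAs on that denominator had medians of 0.13% in bound and 0.249% in unbound knockout libraries, 0.122% and 0.287% in heterozygous libraries, and 0.272% and 0.392% in astrocyte libraries.

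Messenger RNAs of the translation machinery were also mostly lower in bound RNA. Of 20 translation genes listed as 5′ TOP genes, 18 were lower and 0 higher in the knockout line (median -0.73). In the heterozygous line 17 were lower and 1 higher (median -0.68), and in the astrocyte line 14 lower and 1 higher of 19 tested (median -0.39). Eef1a1, the elongation factor that delivers transfer RNAs, changed by -0.80 ± 0.06, -0.86 ± 0.05 and -0.52 ± 0.05, and Rpl4, a protein of the large ribosomal subunit, by -0.77 ± 0.06, -0.70 ± 0.04 and -0.67 ± 0.05. In both microglial lines 1 copy of Eef1a1 carried the tag allele, and its part in the Eef1a1 values was not tested. For comparison, Malat1 changed by -0.99, -1.59 and -0.67 in the knockout, heterozygous and astrocyte lines. Meg3 changed by -1.05, -1.26 and -0.65. Of the neuronal messenger RNAs, Snap25, a synaptic vesicle fusion protein, changed by -0.97 ± 0.06, -0.99 ± 0.05 and -1.11 ± 0.05, and Map2, the microtubule protein of dendrites, by -1.08 ± 0.06, -1.2 ± 0.05 and -0.88 ± 0.04. Of 18 neuron markers, 10 were lower and 4 higher in the knockout line, 10 and 4 in the heterozygous line, and 13 and 3 in the astrocyte line. Their median log2 fold changes were -0.21, -0.19 and -0.55, smaller than the changes of Snap25 and Map2. The summed level of these markers was 6586 to 8570 CPM in bound and 10547 to 12973 CPM in unbound heterozygous libraries, lower in bound RNA as Meg3, Miat and Snhg11 were, and its part in their ratios was not tested. Among 16 proteins of speckles and paraspeckles, the partners of Malat1 and Neat1, 7 were higher and 6 lower in the knockout line, 6 and 7 in the heterozygous line, and 5 and 10 in the astrocyte line. The median log2 fold changes of the 16 were 0.12, 0.05 and -0.29. Son, a scaffold protein of speckles, lay well above these, at 2.66 ± 0.09, 2.79 ± 0.06 and 2.18 ± 0.08. Srrm2 and Hnrnpu, the genes of this list more highly expressed than Son, are not given here.

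**Figure D3:**
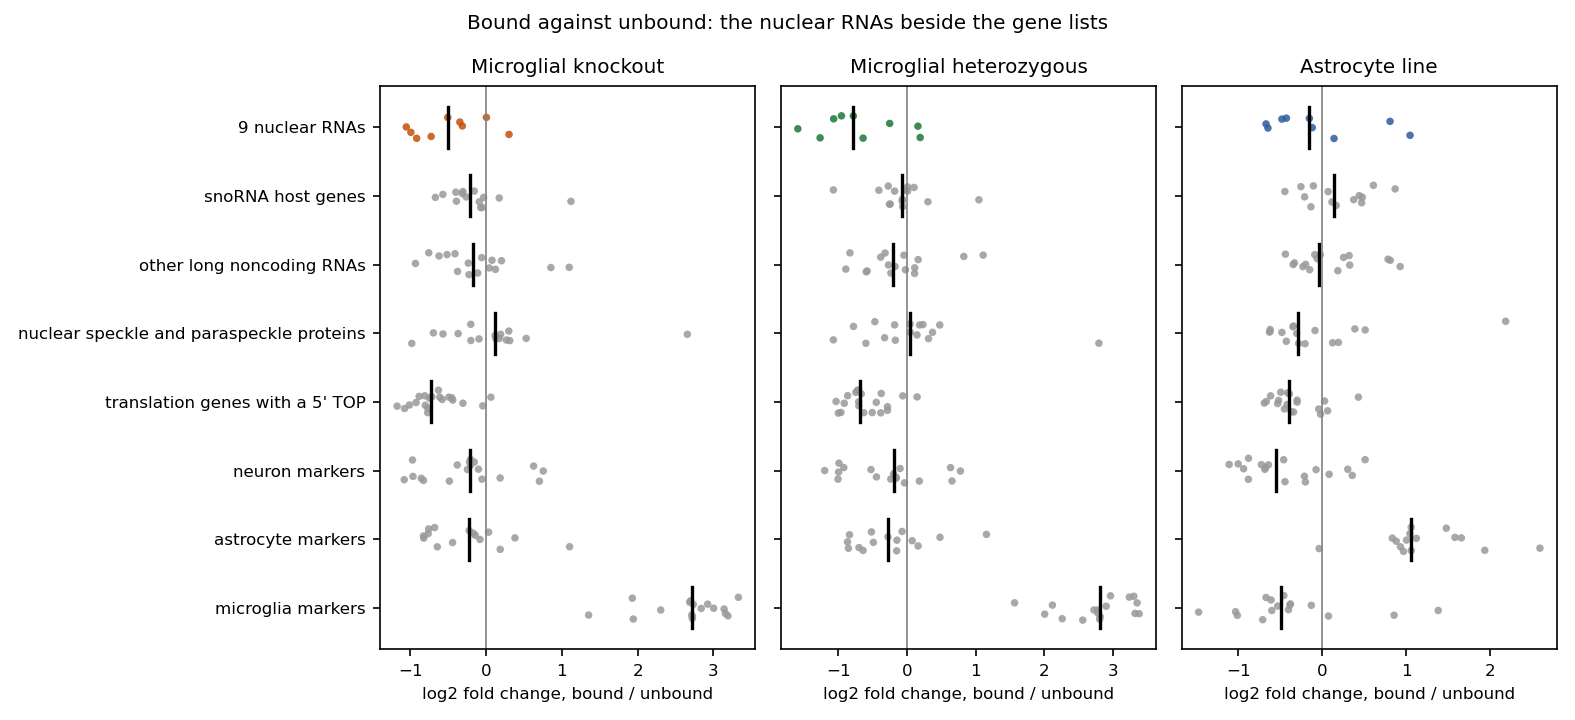
Log2 fold change of bound over unbound RNA for each tested gene of the 9 RNAs and 7 lists, 1 panel per line; black bars are list medians. The 9 nuclear RNAs (coloured) have medians of -0.51, -0.78 and -0.15, beside -0.73, -0.68 and -0.39 for the translation genes.

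The bound over unbound ratio was then compared between lines in 1 model over all 56 libraries. The ratios of Kcnq1ot1, Mirg, Snhg11, Meg3 and Miat were called lower in both microglial lines than in the astrocyte line. Those of Malat1 and Neat1 were called lower in the heterozygous line. The calls of Meg3 and Miat in the knockout line and of Neat1 in the heterozygous line depended on the libraries or settings used, as given below. In the knockout against the astrocyte line 5 of 9 ratios were called lower and 0 higher, where 18.5% of 24464 genes were called lower and 18.5% higher (37% in either direction). These were Kcnq1ot1 at -1.16 ± 0.16 (adjusted p = 2.4e-08), Mirg at -1.04 ± 0.25 (adjusted p = 4.9e-04), Snhg11 at -0.49 ± 0.14 (adjusted p = 0.0046), Meg3 at -0.41 ± 0.15 (adjusted p = 0.029) and Miat at -0.36 ± 0.14 (adjusted p = 0.045). With 1 of the 20 pieces left out in turn, Meg3 was called in 14 fits (adjusted p up to 0.060) and Miat in 6 (up to 0.086). The Miat call was also lost with DESeq2 size factors (adjusted p = 0.051), with mitochondrially encoded genes left out (adjusted p = 0.054) and with no filter on low counts (adjusted p = 0.063). With the piece as a block, Malat1 (-0.34, adjusted p = 0.0023) and Gas5 (-0.20, adjusted p = 0.0044) were called as well, making 7. In the heterozygous against the astrocyte line 7 of 9 were lower and 0 higher, where 18.8% and 17.7% of genes were (36.5% in either direction). The largest were Kcnq1ot1 at -1.58 ± 0.17 (adjusted p = 3.8e-11) and Malat1 at -0.92 ± 0.29 (adjusted p = 0.0095), with Mirg at -0.85 ± 0.26 (adjusted p = 0.0083), Snhg11 at -0.64 ± 0.15 (adjusted p = 6.6e-04), Meg3 at -0.62 ± 0.16 (adjusted p = 0.0020), Miat at -0.48 ± 0.15 (adjusted p = 0.010) and Neat1 at -0.47 ± 0.17 (adjusted p = 0.029). Neat1 was called in 12 of 18 fits with 1 piece left out (adjusted p up to 0.097) and was lost without both 17R and 21L (-0.29, adjusted p = 0.24), with no filter on low counts (adjusted p = 0.054) and with limma-voom (adjusted p = 0.075). Over all genes the median of this difference was -0.10 for the knockout and -0.11 for the heterozygous line, and the values above include that shift. The ratio of Rian differed from that in astrocytes by 0.16 ± 0.08 (adjusted p = 0.10) in the knockout and 0.02 ± 0.08 (adjusted p = 0.87) in the heterozygous line, neither of them called. The lines also differ in the tagged cell, in the count table and depth, in the mitochondrial share and, for the knockout line, in the labelled RNA type (polyA, against total RNA in the others), and these cannot be told apart.

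Knockout and heterozygous microglia were not found to differ in the ratio of any of the 9. 0 of 9 were called where 0.00409% of 24464 genes (1 gene) were, with 1022 genes at an unadjusted p under 0.05. Malat1 had the largest difference, 0.59 ± 0.29 (adjusted p = 1.00), with a 2-SE interval of 0.01 to 1.17, and Kcnq1ot1 followed at 0.43 ± 0.17 (adjusted p = 1.00), with an interval of 0.09 to 0.77. Both had an unadjusted p under 0.05 in edgeR. limma-voom with sample weights also called 0 of 9.

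Deprived and control cortex were compared within each fraction. The 1 call among the 9 RNAs in the 6 comparisons was that of Miat in bound RNA of heterozygous microglia. In bound RNA of the knockout line 0 of 9 passed (0.00546% of 18324 genes, 690 of them at an unadjusted p under 0.05), and in unbound RNA 0 of 9 (0.038% of 18421 genes, 874 at an unadjusted p under 0.05). In the astrocyte line 0 of 9 passed in bound RNA (0% of 17685 genes, 1067 at an unadjusted p under 0.05) and 0 of 9 in unbound RNA (0% of 16846 genes, 1043). DESeq2 and limma-voom called 0 of the 9 in these 4 comparisons too. The largest change in the knockout line was that of Miat in bound RNA, 0.37 ± 0.20 (adjusted p = 1.00). Its libraries held 56.5, 94.5, 56.3, 43.7 and 51.4 CPM in deprived and 32.7, 45.5, 49.6, 38.9 and 65.1 CPM in control cortex (mice 12, 18, 19, 22 and 7 in both), and the groups overlapped. In the astrocyte line Mirg in unbound RNA differed most, by 0.40 ± 0.21 (adjusted p = 0.85), and Kcnq1ot1 in unbound RNA, at -0.23 ± 0.09 (adjusted p = 0.76), was the 1 member of these 4 comparisons with an unadjusted p under 0.05. For Malat1 the 2-SE intervals were -0.55 to 0.39 in bound and -0.46 to 0.36 in unbound RNA of the knockout line, and -0.24 to 0.17 and -0.14 to 0.13 in the astrocyte line. These intervals come from fits without the mouse as a block, so in the knockout line they include the spread between mice.

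In the heterozygous line 1 of 9 passed in bound RNA, where 10.3% of 18001 genes did (5.52% higher and 4.76% lower in deprived cortex). There 4722 genes had an unadjusted p under 0.05 in edgeR. In unbound RNA 0 of 9 passed, where 3.75% of 18073 genes did (2.7% higher and 1.05% lower). DESeq2 and limma-voom called 0 of 9 there too, and 3221 genes had an unadjusted p under 0.05. Miat held 37.4, 36.6, 44.0 and 43.1 CPM in bound RNA of deprived cortex (pieces 14L, 15L, 17L and 17R), against 52.5, 66.8, 67.7 and 47.3 CPM in control cortex (pieces 14R, 15R, 21L and 21R). The change was -0.54 ± 0.11 (edgeR, adjusted p = 0.010). All deprived libraries lay below all control libraries, as was also so for bound Rian, which was not called. How many of all genes lay apart in this way was not counted. The 1 call is 11.1% of the 9 RNAs, near the 10.3% of all genes. In unbound RNA Miat held 74.1, 72.8, 72.1 and 75.7 CPM in deprived and 68.7, 80.1, 87.4 and 73.8 CPM in control cortex, which overlapped (-0.03 ± 0.07, adjusted p = 0.89). The call of Miat in bound RNA was lost when pieces were regrouped by side letter or when certain pieces were left out. Mouse 17 gave deprived libraries from both sides and mouse 21 control libraries from both sides, although the whiskers of 1 side were lesioned. With pieces grouped by their side letter (L or R) the change was -0.17 (adjusted p = 0.93), without pieces 17R and 21L it was -0.49 (adjusted p = 0.050), and without mouse 15 it was -0.43 (adjusted p = 0.076). Within mouse 14 bound Miat was 37.4 CPM on the deprived and 52.5 CPM on the control side, and within mouse 15 36.6 and 66.8 CPM. In the same bound libraries 9 of 17 microglial markers were higher and 0 lower in deprived cortex, with a summed level of 464 to 556 CPM against 278 to 409 CPM, and 1 of 18 neuron markers was higher and 4 lower, summing to 6586 to 7207 CPM against 7912 to 8570 CPM. Of 15 astrocyte markers 6 were higher and 0 lower, with sums of 974 to 1065 CPM in deprived and 862 to 927 CPM in control cortex. The transcript of the tag had 346 to 435 counts in deprived and 226 to 295 counts in control libraries. The part of these in the Miat result was not tested.

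The other 8 RNAs did not pass in bound RNA of the heterozygous line. Mirg differed by -0.93 ± 0.29 (adjusted p = 0.058), with 0.672, 0.653, 1.27 and 1.12 CPM in deprived and 1.10, 2.2, 1.68 and 2.14 CPM in control cortex. Rian differed by -0.24 ± 0.08 (adjusted p = 0.059) and Meg3 by -0.32 ± 0.12 (adjusted p = 0.10). The Rian values were 297, 323, 334 and 289 CPM in deprived and 349, 369, 349 and 407 CPM in control cortex. The DESeq2 Wald test called Mirg, Rian and Meg3 besides Miat, whereas by side letter none of the 9 was called and the change of Meg3 was 0.03. In unbound RNA Kcnq1ot1 came nearest, at 0.27 ± 0.08 (adjusted p = 0.093), with 18.2, 21.7, 20.3 and 20.1 CPM in deprived and 16.5, 17.8, 19.0 and 15.3 CPM in control cortex, which overlapped.

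**Figure D4:**
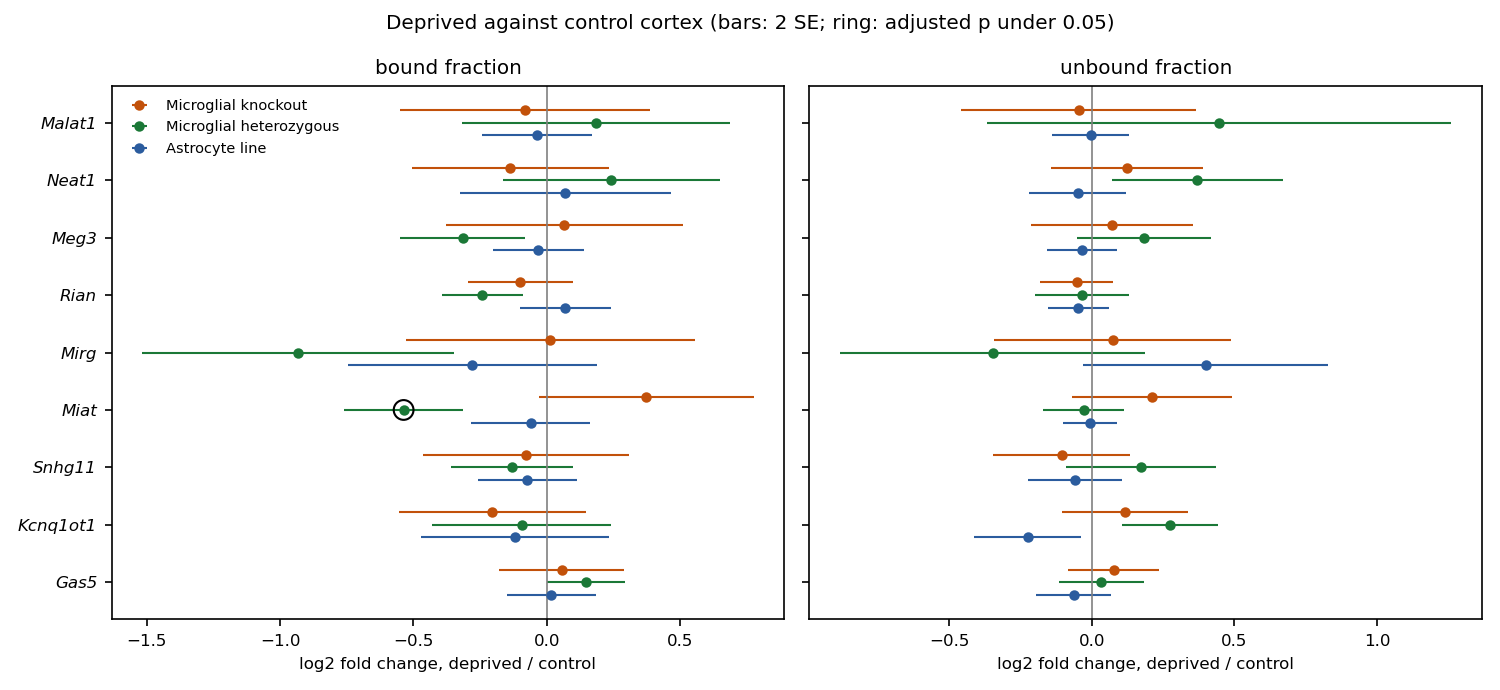
Log2 fold change of deprived over control cortex for each RNA in bound (left) and unbound (right) libraries of the 3 lines, with bars of 2 SE. The 1 ringed point, Miat in bound RNA of the heterozygous line at -0.54, passed the threshold.

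Whether deprivation changed the bound over unbound ratio was tested as an interaction within each line. 0 of 9 ratios changed in the knockout line (0% of 19681 genes, 335 at an unadjusted p under 0.05), 0 of 9 in the heterozygous line (0% of 19275 genes, 1904) and 0 of 9 in the astrocyte line (0% of 18324 genes, 546). DESeq2 called 0, 0 and 0 of the 9 as well. In the heterozygous line Miat differed by -0.47 ± 0.14 (adjusted p = 0.24) and Meg3 by -0.46 ± 0.19 (adjusted p = 0.41). With the piece as a block, both passed, at -0.46 (adjusted p = 0.023) and -0.46 (adjusted p = 0.012), among 243 genes called in that fit. By side letter 0 of 9 passed.

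Malat1 in the heterozygous line varied more between mice than between the sides of a mouse. In unbound RNA mouse 15 held 2067 CPM on the deprived and 1942 CPM on the control side, and mouse 14 516 and 463 CPM. Mouse 17 held 1203 and 1153 CPM in its left and right pieces, both labelled deprived, and mouse 21 679 and 662 CPM, both labelled control. The same order held in bound RNA, with 529.6 and 545 CPM in mouse 15 and 241 and 226 CPM in mouse 14. Mouse 15 was the 1 male of this line, so its sex and the mouse itself cannot be told apart. In the knockout line mouse 18, a female, was highest, with 874 CPM on the deprived and 981 CPM on the control side in unbound RNA. Without mouse 15 the bound against unbound change of heterozygous Malat1 was -1.35 ± 0.18 (edgeR, adjusted p = 8.0e-06), and with the libraries of each mouse summed it was -1.57 ± 0.38 (adjusted p = 0.0041).

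**Figure D5:**
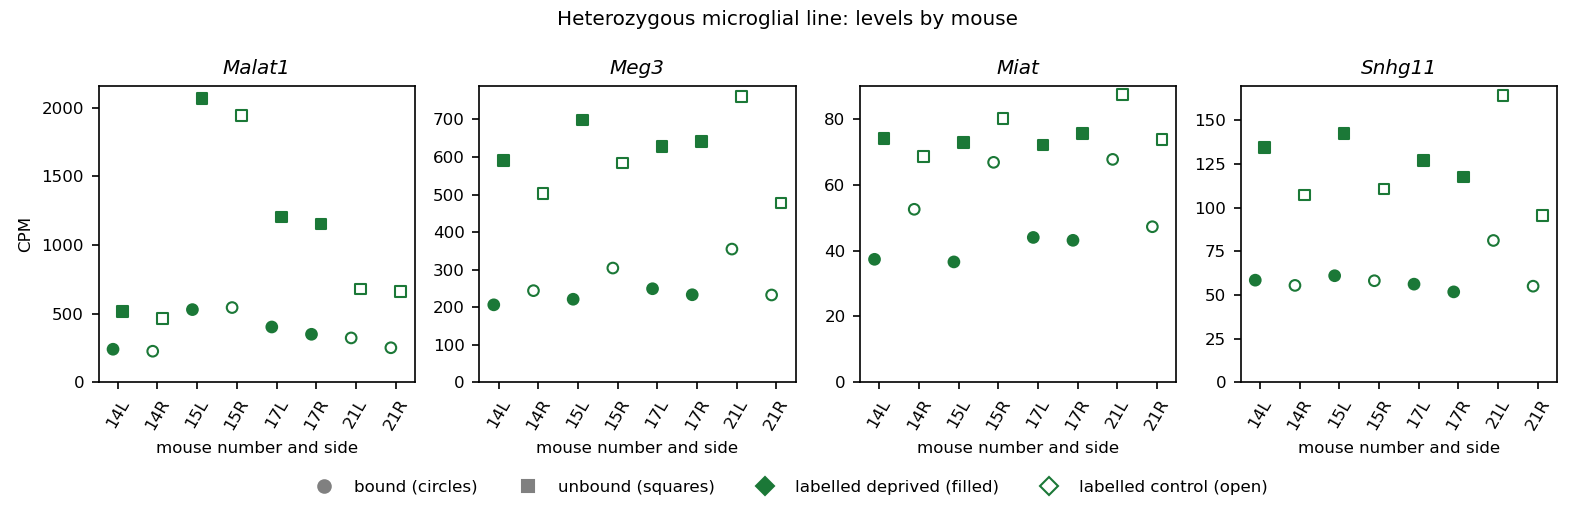
CPM of 4 of the RNAs in the 8 pieces of the heterozygous line, named by mouse number and side; circles are bound and squares unbound, filled where labelled deprived. Malat1 pairs by mouse in both fractions (2067 and 1942 CPM in unbound RNA of mouse 15), and Miat in bound RNA is lowest in 14L and 15L.

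Across the 56 libraries, after the mean of each line was removed, the level of Meg3 was most like that of Snhg11 (Pearson's r 0.960), Pfkp, a glycolytic enzyme (0.950), and Spaca6 (0.934), among 9134 genes with a mean log2 CPM of at least 3. Malat1 was most like Srek1 (0.875), a protein with domains of splicing factors, Rsrp1 (0.871) and Spaca6 (0.864). For Gas5 the likeness was lower, with Atp5md (0.796), a small subunit of the ATP synthase, Chchd1 (0.793), a mitochondrial ribosomal protein, and Snhg6 (0.792), another snoRNA host. These values describe libraries that share pieces, animals and the split into bound and unbound RNA, and they carry no test. Rian stood apart from the other highly expressed members, with values of -0.50 to Malat1, -0.50 to Meg3 and -0.51 to Gas5.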

How the data were processed

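Mouse barrel cortex RNA on tagged ribosomes (bound) and left in solution (unbound) had been sequenced in 56 libraries. The authors deposited 3 tables of raw counts per gene, 1 per line. Per the submitters' processing notes the tools were featureCounts 2.0.0, HISAT2 2.2.0, cutadapt 2.9, Trim Galore 0.6.4 and FastQC 0.11.9; the role and settings of each, strand included, are not given in the sources used here. Per the labels' protocols, cDNA came from the NuGEN Ovation V2 kit and libraries from Nextera XT. No 2 columns were identical.

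The test was that of edgeR 4.0.16, run in R 4.3.3 (quasi-likelihood on TMM-scaled counts past filterByExpr, Benjamini-Hochberg adjustment over all genes, threshold 0.05); CPM are TMM-scaled and log2 CPM used a prior count of 2. Error bars of fold changes are 2 SE. Bound against unbound and the ratio under deprivation used all 4 groups of a line, deprived against control the 2 groups of a fraction, and ratios between lines all 56 libraries and those of the 43902 genes in all 3 tables that passed the filter. Alternatives used DESeq2 1.42.0, limma 3.58.1 (voom with sample weights), other scalings and filters, blocks, sex, side letters and left-out libraries. The fit was tested on simulated data with independent libraries, which leaves out the sharing of pieces and mice. Total counts set the precision of each value, and p-values treat libraries as independent.

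The bound and unbound library of a piece come from the same tissue in the microglial lines. In the astrocyte line they were matched by title number only. Their deviations from group means correlated at 0.157 to 0.399 in the knockout line and 0.128 to 0.361 in the heterozygous line. The astrocyte line gave 0.0741 to 0.332, with 7 of 10 pairs over 0.1. Knockout numbers name mice, so deprived and control libraries of a number pair there (4 of 5 pairs over 0.1 in each fraction). Heterozygous and astrocyte numbers were not taken as pairs of deprived and control libraries.

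The 9 RNAs and the gene lists were chosen with earlier results of these data known. The text names all 9, the 3 most highly expressed genes of a list at most, and the 3 genes most like Malat1, Meg3 and Gas5. Positions came from GENCODE vM21 and promoter windows from RefSeq.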

Additional observations from a re-analysis of the deposited data

Results flagged for a closer look

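Among sets of 4 or 5 libraries of a group, 7 of 108 held 1 library far from the others for one of the 9 RNAs, where chance gives about 1 in 20. In the knockout line these were Miat in bound RNA of deprived mouse 18 (94.5 CPM, the others 43.7 to 56.5), Neat1 in unbound RNA of deprived mouse 18 (4.22 CPM, the others 6.17 to 6.42) and Rian in unbound RNA of deprived mouse 7 (334 CPM, the others 272 to 286). In the heterozygous line they were Malat1 in unbound RNA of control piece 15R (1942 CPM, the others 463 to 679) and Snhg11 in bound RNA of control piece 21L (81.2 CPM, the others 55.1 to 58.2). In the astrocyte line they were Miat in unbound RNA (147 CPM, the others 162 to 165) and Gas5 in bound RNA (53.4 CPM, the others 61.3 to 64.1), both in the deprived libraries numbered 5.

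The bound over unbound ratio differed between lines by the interaction test of edgeR. Knockout minus astrocyte log2 ratios were -1.16 for Kcnq1ot1, -1.04 for Mirg, -0.49 for Snhg11, -0.41 for Meg3 and -0.36 for Miat. Heterozygous minus astrocyte log2 ratios were -1.58 for Kcnq1ot1, -0.92 for Malat1, -0.85 for Mirg, -0.64 for Snhg11, -0.62 for Meg3, -0.48 for Miat and -0.47 for Neat1.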

How the results depend on the processing

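Of 1071 gene values under other settings, 1034 stayed on their side of the threshold, 13 lost a call, 24 gained one and 0 turned a call round; with 1 library or piece left out the numbers were 1965, 41, 10 and 0 of 2016. Leaving out mouse 15 and summing the libraries of a mouse were chosen after seeing the data. The cause of the changes was not tested. Depth limits Mirg and Neat1 most.

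For deprived against control in bound RNA of the heterozygous line, the 1 call among the 9 became 3 with no filter, 2 with limma-voom, 4 with DESeq2, 2 with all 4 groups in the fit, and 0 by side letter, without 17R and 21L and without mouse 15. In unbound RNA 0 became 1 with no filter and without 17R and 21L. For the ratio under deprivation in that line 0 became 2 with no filter. With 1 library left out the counts were 1 to 2 in bound and 0 to 2 in unbound RNA of that line, and 0 in the other lines and for the ratio. Bound against unbound gave 8 in the knockout, 7 to 8 in the heterozygous and 7 to 9 in the astrocyte line. Ratios against the astrocyte line gave 3 to 6 in the knockout and 6 to 7 in the heterozygous line, and knockout against heterozygous 0.

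Over all genes, deprived against control in heterozygous bound RNA gave 1850 calls, but 0 by side letter, 741 without 17R and 21L and 856 without mouse 15 (938 to 2089 with 1 library left out). Unbound RNA gave 678, and 1459 with no filter, 1176 with DESeq2, 0 by side letter, 294 without 17R and 21L and 136 without mouse 15 (247 to 1141). Knockout bound RNA gave 1, and 28 with no filter and 11 with DESeq2 (0 to 2); unbound RNA gave 7, and 52 with no filter, 1 with limma-voom, 35 with DESeq2, 2 with sex as a term and 1 with all 4 groups (0 to 22). Astrocyte bound RNA gave 0, and 85 with no filter and 7 with DESeq2; unbound RNA gave 0, and 143 with no filter (both 0 with 1 library left out). The ratio under deprivation gave 0 in each line, and with no filter 1 in the knockout, 118 in the heterozygous and 15 in the astrocyte line; the heterozygous line gave 11 with limma-voom and 170 with DESeq2 (0 to 60). The knockout against heterozygous ratio gave 1, and 0 with DESeq2 size factors, with limma-voom and without 17R and 21L, and 2 by side letter (0 to 2). Bound against unbound gave 11872 to 12314, 11720 to 12094 and 10642 to 11030 calls in the knockout, heterozygous and astrocyte lines, and ratios against the astrocyte line 8572 to 9116 (knockout) and 8419 to 9035 (heterozygous).

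With the replicate number as a block, deprived against control called 3 of the 9 in bound and 1 in unbound RNA of the heterozygous line, where numbers 3 and 4 join different mice; the 1 was Malat1, at 0.51 (adjusted p = 0.032). Over all genes this block gave 2 in bound and 3 in unbound knockout RNA. With the piece as a block, the ratio under deprivation called 2 of the 9 and 243 genes in the heterozygous line and 1 gene in the astrocyte line, the knockout against heterozygous ratio 0 genes, and the knockout against astrocyte ratio 7 of the 9. The blocks changed no other call among the 9 in the knockout line.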

Other observations

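Of 10 endothelial and mural markers, which mark none of the tagged cell types, 6 were higher and 1 lower in the knockout line (median log2 fold change 0.35), 4 and 1 in the heterozygous line (0.32), and 4 and 1 in the astrocyte line (0.37). Their summed level went the other way. In control libraries its median was 185 CPM in bound and 234 CPM in unbound knockout RNA. It was 162 and 190 CPM in the heterozygous line and 243 and 320 CPM in the astrocyte line. The ranges overlapped in both microglial lines. Of 12 oligodendrocyte lineage markers, 11 were tested in the knockout line with 1 higher and 5 lower (median -0.11), 11 in the heterozygous line with 1 higher and 5 lower (median -0.22), and 10 in the astrocyte line with 4 higher and 4 lower (median -0.03).

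In unbound RNA of the heterozygous line 5 of 16 speckle and paraspeckle protein genes were called lower and 0 higher in deprived against control cortex (edgeR, Benjamini-Hochberg adjusted), where 1.05% of all genes were called lower. Their median log2 fold change was -0.17, all genes 0.00, with 16 of 16 below 0. By side letter none of the 678 calls over all genes was left, and the deprived and control libraries come partly from different mice. In the same libraries 4 of 15 astrocyte markers were called higher (14 above 0), 9 of 10 endothelial and mural markers were above 0 with 0 called, and 2 of 18 neuron markers were called higher and 4 lower; their part was not tested. In unbound RNA of the knockout line 12 of the 16 were above 0 and 4 below, with 0 called.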
